A study of Homo sapiens with 18 samples.

Results

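The measurements below compare AMO1 cells treated with 1000 nM YKL-5-124 against AMO1 cells treated with 100 nM, each for 6 h. The 6 libraries compared, 3 replicates at each concentration, were taken by their labels from a series of 18, and every gene entered the comparison by its log2(FPKM + 1) value. FPKM as a unit counts sequenced fragments per gene after scaling for the length of the transcript and the size of the library. The exact scaling of the deposited values is not known here. The study treated 2 cell lines labelled multiple myeloma, AMO1 and XG1, with DMSO (the solvent control), 100 nM or 1000 nM YKL-5-124, and its title names resistant lines without saying what each resists. The 3 AMO1 libraries that received DMSO are given beside the treated ones as a reference level. All of these cells grew in multiwell plates in RPMI medium with serum. The labels do not say whether the replicates came from separate cultures, so p-values measure only their spread, which may be technical.

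AMO1 is a human plasma cell line used as a model of multiple myeloma, the cancer of antibody-secreting plasma cells. YKL-5-124 binds CDK7 covalently. CDK7, with cyclin H (CCNH) and MNAT1, is the kinase of the general transcription factor TFIIH, which phosphorylates the tail of RNA polymerase II as genes are started, and the same trimer activates the cell cycle kinases CDK1 and CDK2 by phosphorylating their T-loops. Lowering CDK7 activity is therefore studied both for transcription of short-lived messages and for entry into S phase and mitosis.

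The 10 plasma cell markers examined were each at 1 FPKM or more in all 6 libraries, and the surface proteoglycan SDC1 (CD138) lay between 2916 and 4056 FPKM. Markers of other cells were low. All 12 myeloid markers and 12 of 15 T and NK cell markers were under 1 FPKM in all 6 libraries, as were 9 of 14 stromal and epithelial and 8 of 17 erythroid markers, GATA1 and ALAS2 among them. Summed erythroid markers, mostly the embryonic globin HBE1, reached 93.6 to 131 FPKM at 100 nM and 81.7 to 116 at 1000 nM. The summed plasma cell markers did not overlap between the concentrations, at 5698 to 6596 FPKM at 100 nM and 4808 to 5454 at 1000 nM. SDC1 made up most of both sums (means 3695 and 3144 FPKM) and did not pass the test described below (limma adjusted p = 0.863). Of all genes tested, 19.3% were likewise lower in every library at 1000 nM. The 9 libraries labelled XG1, which enter the fit and 1 side comparison, went against their label: they held PRDM1 at 0.0969 to 0.414 FPKM, SDC1 at 4.36 to 15.1 FPKM and the globin HBG1 at 1172 to 1398 FPKM. The 6 AMO1 libraries held 9495 to 10267 genes at 1 FPKM or more. Their log2 values correlated across genes at 0.964 to 0.974 within a concentration and at 0.964 to 0.972 between the concentrations. The small RNA SNAR-E took 12.0% to 22% of the summed FPKM, most in 100 nM replicate 2. Summed FPKM ran from 1654930 to 2072840 in the libraries at 100 nM and from 1462900 to 1572030 in those at 1000 nM, without overlap. Their median deviations of ERCC spike-in RNAs from the series means were 0.000583 to 0.0578 on the log2 scale. Whether the deposited values had been scaled on the spike-ins was not tested. Read depth is unknown, since the values are not counts. Because FPKM divides 3′ end reads by transcript length, levels of different genes are not on a common scale. Sums, shares of sums and groupings of genes by level are therefore rough.

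The further step from 100 to 1000 nM changed few genes past the test. Of 12204 genes tested, 22 passed an adjusted p of 0.05 (0.18% of genes), 4 higher at 1000 nM (0.0328%) and 18 lower (0.147%). At an unadjusted p under 0.05 there were 131 higher (1.07%) and 1151 lower genes (9.43%). The test was limma's moderated test over all 18 libraries with Benjamini-Hochberg adjustment over all genes tested, and all log2 changes are differences of log2(FPKM + 1), which understate the change of low genes. From the same fit, 268 genes (2.2%) were called at 100 nM against DMSO, 53 higher (0.434%) and 215 lower (1.76%), and 2091 (17.1%) at 1000 nM against DMSO, 217 higher (1.78%) and 1874 lower (15.4%); these comparisons share libraries with the one between concentrations and are given only side by side.

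Beneath the small number of calls most genes lay slightly lower at 1000 nM. The log2 change was below 0 for 8668 genes, 71% of those tested, with a median of -0.11 and a range from -0.50 to 0.29 between the 5th and 95th percentiles. In 2361 genes (19.3%) all 3 libraries at 1000 nM lay below all 3 at 100 nM, and in 348 (2.85%) all 3 lay above. The share of genes with a negative change was 63.8% under 1 FPKM, 66.4% from 1 to 10, 78.6% from 10 to 100 and 85.5% over 100 FPKM. With each library centred on its own median, 48.1% of genes were below 0 and the median change was 0.01. Summed FPKM was also lower in every library at 1000 nM than in every library at 100 nM. Whether the scale of the libraries accounts for the shift was not tested. In a bulk sample, fewer cells of a type and less RNA per cell cannot be told apart.

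**Figure D1:**
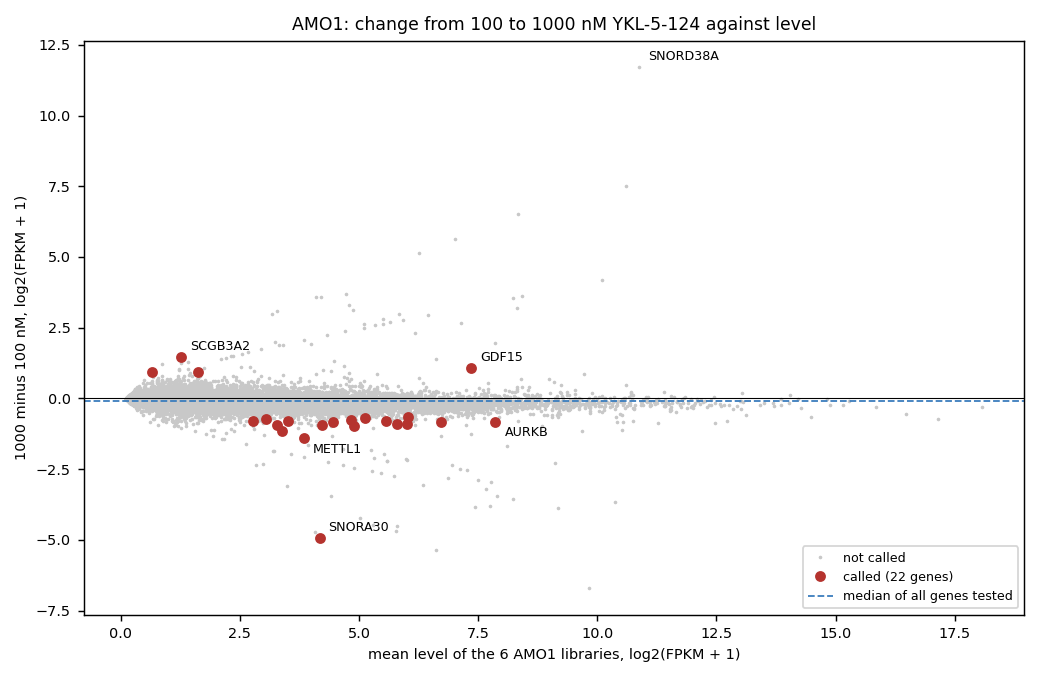
Each point is 1 of the 12204 genes tested, with the mean level of the 6 libraries on the x axis (log2(FPKM + 1)) and the log2 change from 100 to 1000 nM on the y axis. The 22 called genes are red and the dashed line is the median of all genes, -0.11. Most of the widest changes belonged to small RNA genes, and SNORA30 was the called gene among them. SNORD38A was separate between the concentrations in AMO1, while its replicates differed widely in the libraries labelled XG1.

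The calls rested on the libraries to different degrees. Without 100 nM replicate 3, or without 1000 nM replicate 3, 2 genes were called, METTL1 and SNORA30. Leaving out any of the other 4 libraries left 4 to 17 calls. None of the 6 fits that left out 1 library called AK6, AURKB, CDCA7, DYRK1B, GDF15, KLHL23, RAB36, SPDL1, YDJC or YEATS4. Centring lost the calls of AK6, AURKB, CDCA7, JAKMIP1, MIS18A, RAB36, SPDL1 and YDJC. A fit of the 6 libraries alone called 85 genes, 75 of them lower, and a fit of the 9 AMO1 libraries called 5. After centring, the split of calls was 6 higher and 14 lower, and after quantile normalization 11 higher and 11 lower, beside 4 and 18 without.

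METTL1, the methyltransferase that places 7-methylguanosine on tRNAs, had the largest fall among the called genes after SNORA30; uncalled small RNA genes had larger ones. It stood at 20.1, 22.3 and 17.2 FPKM in the 3 libraries at 100 nM and at 7.36, 6.23 and 6.90 FPKM at 1000 nM. Every library at 1000 nM was below every library at 100 nM, and these in turn were below the DMSO libraries, which held 49.3, 55.7 and 30.5 FPKM. The log2 change was -1.41 (SE 0.19, limma adjusted p = 0.00283), a mean level 2.91-fold lower. METTL1 was called in all 17 alternative settings, at limma adjusted p-values from 0.00119 to 0.0372.

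The other lowered genes are described in turn by what their products do, an order made by hand and not a test of any theme. ZBTB32, a zinc finger repressor expressed in activated lymphocytes, was at 12.1, 11.8 and 16.1 FPKM at 100 nM and 5.48, 5.95 and 4.91 FPKM at 1000 nM, with 28.7 to 37.4 in DMSO. The groups did not overlap, and the log2 change was -1.15 (SE 0.17, limma adjusted p = 0.00469). CIITA, the coactivator that switches on MHC class II genes, was tight within each concentration, at 11.6, 11.4 and 12.5 FPKM against 5.61, 5.83 and 5.66 FPKM. It fell by 0.94 on the log2 scale (SE 0.15, limma adjusted p = 0.0138) from a mean already lowered at 100 nM (25.7 FPKM in DMSO). YEATS4, an acetyl-histone reader of the TIP60 and SRCAP chromatin complexes, fell from a mean of 38.2 to 19.3 FPKM (log2 change -0.96, limma adjusted p = 0.022). CDCA7, a zinc finger partner of the chromatin remodeler HELLS, fell from 23.5 to 11.9 FPKM (-0.94, limma adjusted p = 0.0453). CIITA overlaps DEXI in the annotation, and since strand use in the counting is not given, its reads and those of the neighbour cannot be told apart.

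SRSF3, an SR protein that selects splice sites, was at 55.8, 56.8 and 63.6 FPKM at 100 nM and 29.6, 35.2 and 36.5 FPKM at 1000 nM, with 105 to 120 in DMSO. The libraries at each concentration lay below all of those at the concentration before, and the change between the concentrations was -0.79 (SE 0.13, limma adjusted p = 0.0171). EXOSC3, a cap subunit of the RNA exosome that trims and degrades RNA, fell from 27.2 to 14.7 FPKM (-0.84, limma adjusted p = 0.022). MRPL16, a protein of the large mitochondrial ribosomal subunit, was at 78.5, 64.7 and 71.1 FPKM at 100 nM and 37.5, 37.6 and 38.4 FPKM at 1000 nM (-0.89, SE 0.14, limma adjusted p = 0.0117). Its 100 nM libraries overlapped none of the 1000 nM libraries and lay below the 78.6 to 91.7 FPKM of DMSO, replicate 1 by a narrow margin. AK6, an adenylate kinase of the nucleus, changed by -0.90 (limma adjusted p = 0.0367), but its gene overlaps TAF9 and RAD17, so its reads are uncertain. TAF9 itself had means of 67.7 and 60.6 FPKM.

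AURKB, the kinase of the chromosomal passenger complex, was at 286, 300 and 304 FPKM at 100 nM and at 171, 168 and 162 FPKM at 1000 nM. The DMSO libraries were spread from 256 to 427 FPKM and overlapped those at 100 nM, while every library at 1000 nM was lower (log2 change -0.83, SE 0.16, limma adjusted p = 0.0359). UBE2T, the ubiquitin-conjugating enzyme of the Fanconi anaemia pathway, was at 148, 123 and 133 FPKM at 100 nM, overlapping its 138 to 146 FPKM in DMSO, and at 66.4, 82.2 and 79.1 FPKM at 1000 nM (-0.82, SE 0.14, limma adjusted p = 0.0156). SPDL1, which recruits dynein to kinetochores, had means of 32.8 FPKM in DMSO, 34.9 at 100 nM and 20.0 at 1000 nM (-0.77, limma adjusted p = 0.0365). MIS18A, needed to load the centromeric histone CENP-A, fell from 79.3 to 49.6 FPKM (-0.67, limma adjusted p = 0.022); it and YDJC (42.3 to 25.5 FPKM, -0.71, limma adjusted p = 0.022) were outside the rule for naming genes and were named after their values were seen.

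The remaining lowered genes were KLHL23, JAKMIP1 and RAB36, whose log2 changes were -0.81, -0.80 and -0.74 at limma adjusted p-values of 0.0411, 0.022 and 0.0485. KLHL23 shares its locus with the read-through gene PHOSPHO2-KLHL23, and RAB36 overlaps RSPH14, so these values are uncertain. JAKMIP1, a protein that binds microtubules and Janus kinases, went from a mean of 10.4 FPKM in DMSO to 7.71 and 4.03 FPKM. Of the 18 genes called lower, 16 had a mean at 100 nM between those of DMSO and 1000 nM, a count with no share over all genes beside it. At 100 nM against DMSO 5 were also called lower (1.76% of all genes tested), and at 1000 nM against DMSO 17 (15.4% of all). The genes were picked by their values in the same 100 and 1000 nM libraries, so these counts are a description.

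GDF15 was the gene of high level that rose. GDF15 encodes a secreted stress cytokine of the TGF-beta superfamily that p53 and other stress factors induce. Its libraries held 115, 87.7 and 110 FPKM at 100 nM and 202, 231 and 225 FPKM at 1000 nM, against 17.7 to 36.7 in DMSO. The 3 conditions did not overlap, and the change between the concentrations was 1.07 (SE 0.20, limma adjusted p = 0.022), a mean level 2.10-fold higher. GDF15 kept its call in 8 of 17 alternative settings and in none of the 6 fits without 1 library. Its gene overlaps that of MIR3189. DYRK1B, a kinase linked to quiescence, was at 0.892, 1.13 and 1.33 FPKM at 100 nM, overlapping the 0.711 to 1.11 FPKM of DMSO, and at 2.81, 2.89 and 3.47 FPKM at 1000 nM (log2 change 0.94, limma adjusted p = 0.022).

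The other two genes called higher had their lowest values at 100 nM. SCGB3A2, a secreted secretoglobin best known from airway cells, was at 0.0871, 0.685 and 0.107 FPKM at 100 nM and at 2.64, 2.34 and 2.50 FPKM at 1000 nM, but the DMSO libraries already held 1.29 to 5.52 FPKM (log2 change 1.46, limma adjusted p = 0.022). DYDC1 was at 0.0863, 0.0737 and 0.106 FPKM at 100 nM and at 0.891, 1.08 and 1.20 FPKM at 1000 nM, with 0.0921 to 1.00 in DMSO (0.92). DYDC1 reached the filter of 1 FPKM only through the 1000 nM group, where it is high (mean 1.06 FPKM, against 0.0887 to 0.513 in the other 5 groups), so its call adds no support to the count. The call was lost in each of the 5 fits without 1 library that tested it, and without 1000 nM replicate 3 the gene was under the filter. Values near 0.1 FPKM are at the bottom of the scale, and DYDC1 overlaps DYDC2.

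The genes with separate groups and the smallest unadjusted p after the calls, among those higher at 1000 nM, did not pass the test. SESN2, a sestrin induced by p53 and ATF4 that restrains mTORC1, was at 56.5, 56.8 and 59.2 FPKM at 100 nM and 95.5, 92.2 and 95.4 FPKM at 1000 nM (0.71, limma adjusted p = 0.084). The decoy death receptor TNFRSF10D had means of 9.75 and 15.3 FPKM (0.60, adjusted p = 0.151), and PIDD1, a p53-induced scaffold of the PIDDosome, 4.08 and 6.64 FPKM (0.59, adjusted p = 0.151). VSTM1, TAPBPL and FAM212B had limma adjusted p-values of 0.0755, 0.138 and 0.179.

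**Figure D2:**
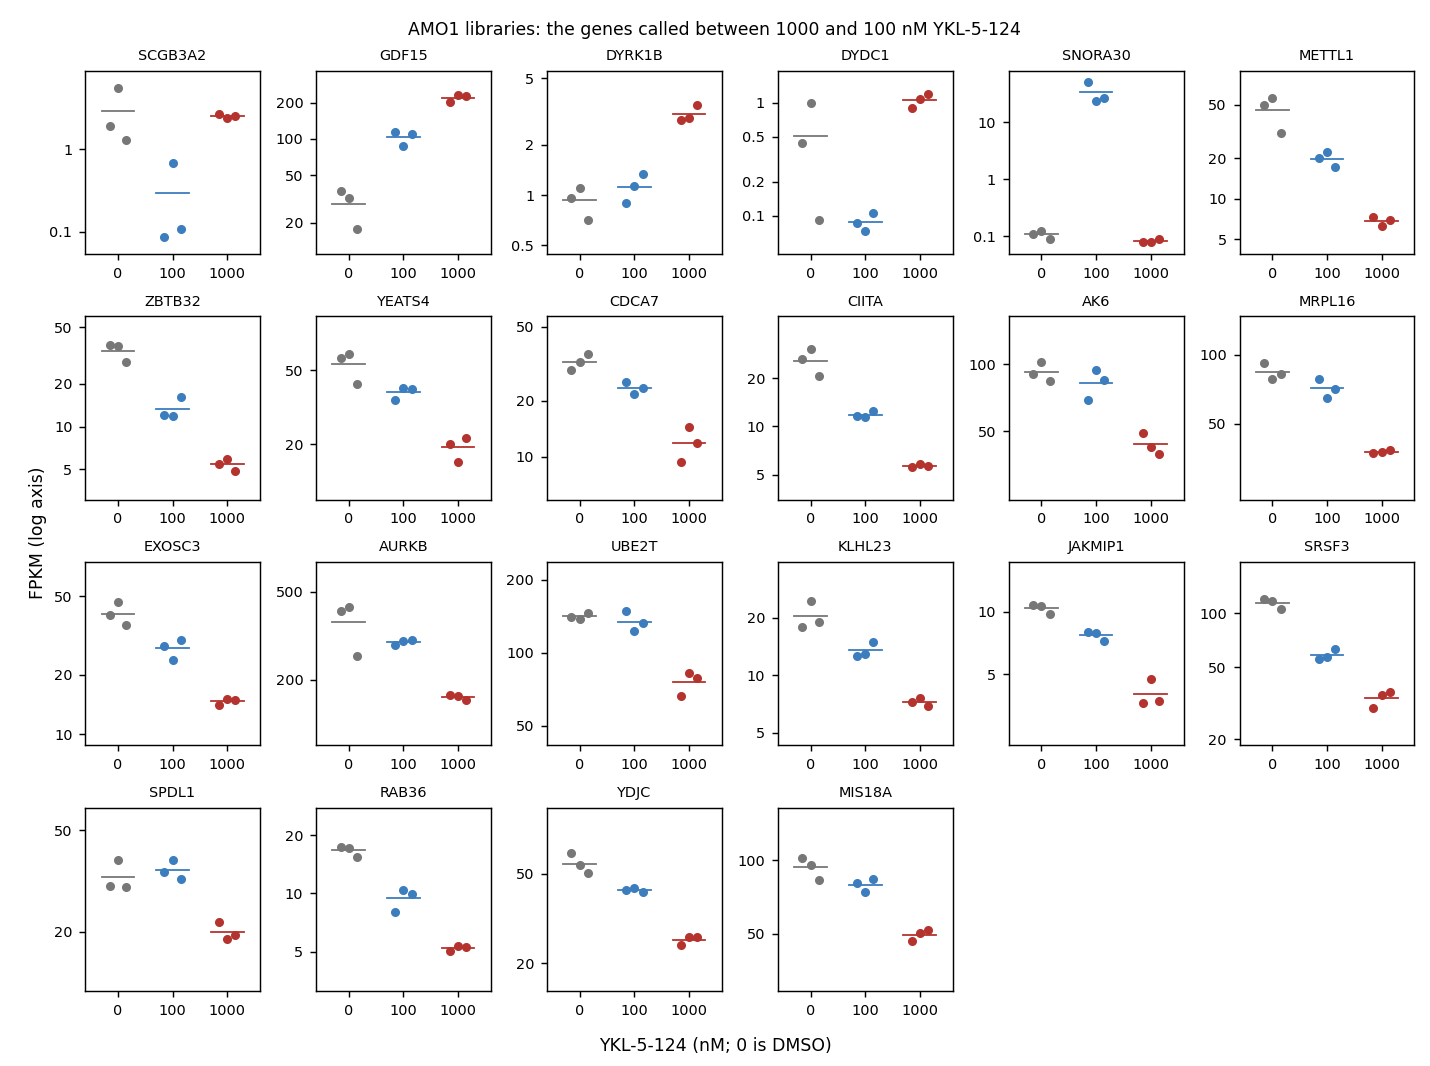
FPKM (log axis) in each of the 9 AMO1 libraries for the 22 called genes, by concentration of YKL-5-124 in nM, where 0 is DMSO, points are libraries and lines are means of 3. The 1000 nM points are clear of the 100 nM points in all 22 panels, while at 100 nM AK6, AURKB, DYDC1, DYRK1B, MIS18A, SPDL1 and UBE2T overlapped DMSO.

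The sequences before the start sites of 4 of these genes are shown because they show how unlike the promoters of genes moving in the same comparison can be: GDF15 (higher) and SRSF3, ZBTB32 and AURKB (lower). Each is the 250 bases before the start on the gene's strand, 5′ to 3′, from RefSeq on GRCh38.p14 (the deposited values used hg19, and coordinates were not carried over). GDF15 is at chr19:18385908-18386157 (plus strand), SRSF3 at chr6:36594112-36594361 (plus), ZBTB32 at chr19:35704308-35704557 (plus), and the first of the 2 listed starts of AURKB at chr17:8210226-8210475 (minus). Capitals mark the letters of 5 motifs on either strand: the TATA box, searched as TATAAA; the CCAAT box, searched by those letters; the E-box, searched as CACGTG, which reads the same on both strands; the GC box, searched as GGGCGG; and the CHR element of cell cycle promoters, searched as TTTGAA. No marked base belongs to more than 1 kind of motif.
GDF15: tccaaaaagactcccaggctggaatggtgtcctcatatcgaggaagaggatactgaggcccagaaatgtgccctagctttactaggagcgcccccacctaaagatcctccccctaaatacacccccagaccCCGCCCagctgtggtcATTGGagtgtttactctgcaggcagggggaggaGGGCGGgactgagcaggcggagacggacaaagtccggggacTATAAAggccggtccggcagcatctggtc
SRSF3: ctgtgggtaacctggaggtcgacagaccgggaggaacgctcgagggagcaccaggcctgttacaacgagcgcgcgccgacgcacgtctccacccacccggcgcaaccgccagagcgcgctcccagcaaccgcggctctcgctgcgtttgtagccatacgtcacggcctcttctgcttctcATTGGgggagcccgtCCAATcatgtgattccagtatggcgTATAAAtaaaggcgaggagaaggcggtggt
ZBTB32: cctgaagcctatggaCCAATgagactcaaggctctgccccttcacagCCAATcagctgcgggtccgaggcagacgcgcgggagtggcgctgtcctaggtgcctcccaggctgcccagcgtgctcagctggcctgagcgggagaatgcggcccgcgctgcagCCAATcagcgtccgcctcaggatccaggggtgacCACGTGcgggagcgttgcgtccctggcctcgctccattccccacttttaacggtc
AURKB: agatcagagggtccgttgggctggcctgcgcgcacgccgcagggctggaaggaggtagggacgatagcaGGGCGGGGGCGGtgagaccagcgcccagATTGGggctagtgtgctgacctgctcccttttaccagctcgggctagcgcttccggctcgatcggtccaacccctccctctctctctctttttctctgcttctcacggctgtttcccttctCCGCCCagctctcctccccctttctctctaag

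GDF15 and SRSF3, which moved in opposite directions, both held a TATA box, starting at -29 and -30 from the start site. ZBTB32 held a CCAAT box at -235, -203 and -89 and an E-box at -55, and no TATA box. AURKB held a GC box at -181, -175 and -32 and an inverted CCAAT box at -153. Of the 22 called genes, 16 had an entry in the RefSeq table, and CIITA, KLHL23, METTL1, MIS18A, RAB36 and SNORA30 had none. AK6, AURKB, EXOSC3 and SPDL1 had 2 listed starts, each counted as a window, and all of these windows held a GC box. The 16 windows of lowered genes, from 250 bases before to 50 after the start, came from 12 genes. Of these windows 12 held a GC box (75.0%), 7 a CCAAT box (43.8%) and 3 a CHR element (18.8%). An E-box was in 2 (12.5%) and a TATA box in 1 (6.25%). Of the 4 windows of genes called higher, 2 held a GC box, 2 a CCAAT box, 2 a TATA box, 1 an E-box and 0 a CHR element, too few to compare. Over the 12890 windows of genes tested the shares were 66.3%, 35.0%, 10.5%, 9.71% and 6.04%, and over the 35116 windows for all genes they were 45.0%, 34.6%, 15.2%, 7.26% and 11.5%. These are matches of letters and not binding sites.

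SNORA30, a small nucleolar RNA whose class guides pseudouridylation, behaved unlike any other called gene. Its 100 nM libraries held 50.8, 24.2 and 27.0 FPKM, and the 1000 nM libraries 0.0788, 0.0805 and 0.0901 FPKM. It was equally low in DMSO, at 0.0898 to 0.126 FPKM, so that the gene was high at 100 nM and at the bottom of the scale in the other 6 AMO1 libraries (log2 change -4.94, SE 0.19, limma adjusted p = 1.47e-12). It reached the filter of 1 FPKM only through the 100 nM group (mean 34.0 FPKM, against 0.0831 to 0.109 in the other 5 groups), so it had to differ, and its SE comes from a fit in which the other 15 libraries sit at the bottom of the scale. The size of that change depends on the pseudocount and ran from -7.46 to -2.88 over the alternative settings, all of which called the gene. No other gene was at 10 FPKM or more in every 100 nM library and under 1 FPKM in the other 6. SRCAP, the gene in whose span SNORA30 lies, had means of 0.716, 0.467 and 0.431 FPKM from DMSO to 1000 nM. The method reads polyadenylated 3′ ends, and small RNA genes varied widely between replicates: of 70 genes with a log2 change of at least 2 in either direction, 67 carried snoRNA, scaRNA, microRNA or RNU names, and 69 were not called. The median SE of the 239 such genes tested was 1.74, against 0.197 for the others.

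Gene lists were read by counts and medians beside the same values over all genes tested (19.3% separate lower, 2.85% separate higher, median -0.11). Of 27 lists of pathways and families, 22 held no called gene, 25 had a median below 0 and 22 had a median below that of all genes. The share separate and lower rose with level, at 7.09% under 1 FPKM and 13.9% from 1 to 10. It was 29.9% from 10 to 100 and 38.7% over 100 FPKM. The lists were not matched for level, so a share above 19.3% is not a difference from genes of the same level. The lists were drawn up with earlier results of these data known, so their counts are descriptions.

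No gene of CDK7 and its partners was called. All 10 genes of the CDK7 trimer and TFIIH had a change below 0, none had separate groups, and their median was -0.12. CDK7 itself was at 8.74, 7.05 and 8.30 FPKM at 100 nM and 6.44, 9.31 and 6.42 FPKM at 1000 nM, which overlapped (-0.12, 95% interval -0.53 to 0.29). Cyclin H (CCNH) had means of 17.0 and 12.8 FPKM and an interval from -0.97 to 0.22. POLR2A, the large subunit of RNA polymerase II, had overlapping groups at the 2 concentrations, with 203, 151 and 188 FPKM at 100 nM, 150, 183 and 193 FPKM at 1000 nM and a mean of 58.9 FPKM in DMSO. Its change between the concentrations was -0.04 (95% interval -0.41 to 0.33). Of the 12 RNA polymerase II subunits 10 were below 0 and 3 had separate groups, POLR2H at -0.46 and POLR2G at -0.37 among them, with no call. Among 26 elongation and Mediator kinases and partners none was called; HEXIM1, the inhibitor of the elongation kinase P-TEFb, was at 17.1, 10.7 and 14.5 FPKM at 100 nM and 9.29, 8.28 and 8.69 FPKM at 1000 nM, near the 7.84 FPKM mean of DMSO (-0.61, limma adjusted p = 0.318).

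Cell cycle lists held a larger share of members separate on the low side than the 19.3% of all genes, without matching for level. For all genes from 10 to 100 FPKM that share was 29.9%, and for those over 100 FPKM 38.7%. In the 35 G2/M and mitosis genes, 33 were below 0, 18 (51.4%) were separate and lower, the median was -0.33 and AURKB was the 1 called gene. The spindle checkpoint kinase TTK had means of 3.14 and 1.49 FPKM (-0.71), the anaphase-promoting E2 enzyme UBE2C 652 and 413 FPKM (-0.65), topoisomerase TOP2A 144 and 93.9 FPKM (-0.61) and the mitotic kinase CDK1 60.6 and 40.2 FPKM (-0.58), none of them called. FOXM1, which drives many G2/M genes, was at 0.23 with means of 10.9 and 12.8 FPKM. In the 48 E2F and G1/S genes 42 were below 0 and 19 (39.6%) were separate and lower, with a median of -0.25 and no call. PCNA, the sliding clamp of DNA replication, had libraries at 125, 127 and 121 FPKM against 75.8, 77.9 and 69.0 FPKM (-0.74, limma adjusted p = 0.158), and RRM2, the small subunit of ribonucleotide reductase, 197, 190 and 211 FPKM against 120, 134 and 143 FPKM (-0.59, limma adjusted p = 0.0882). For both genes the groups at the 2 concentrations did not overlap, while those at 100 nM and in DMSO did. In the 21 DNA repair genes 15 were below 0, 6 (28.6%) were separate and lower, none was called and the median was -0.13. E2F1 and cyclin E (CCNE1) had changes of -0.07 and -0.02.

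The p53 target list ran the other way. Of 22 members tested 16 were above 0, 9 were separate and higher, 1 was separate and lower, and the median was 0.21 (0.33 after centring). GDF15 was the 1 called member. SESN2, ZMAT3 (0.52), GADD45A (0.49), BTG2 (0.43), TIGAR (0.36), BBC3 (0.34), TP53INP1 (0.31) and FDXR (0.31) were the other separate members, none called. CDKN1A, the CDK inhibitor p21, overlapped at 270, 228 and 319 FPKM against 249, 245 and 301 FPKM (-0.03, 95% interval -0.53 to 0.47), MDM2 was at -0.29 and BAX at -0.39. The list therefore held members in both directions. In the libraries labelled XG1 its median change between the same concentrations was -0.18.

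Chaperone and MYC genes were lower without a call. In 20 heat shock genes 17 were below 0, 11 (55.0%) were separate and lower and the median was -0.28. HSPA8, the constitutive HSC70 chaperone, was at 106, 70.1 and 105 FPKM at 100 nM and 34.1, 49.6 and 63.1 FPKM at 1000 nM, from 199 to 267 in DMSO (-0.94, limma adjusted p = 0.0927); its gene hosts snoRNAs. Its co-chaperone DNAJA1 had means of 64.7 and 38.0 FPKM (-0.75, limma adjusted p = 0.059), while the heat shock factor HSF1 was at 0.06. MYC was at 24.0, 19.3 and 23.9 FPKM at 100 nM and 10.6, 14.5 and 12.3 FPKM at 1000 nM. Its groups did not overlap, but its spread over the series was wide and the change of -0.80 had an adjusted p of 0.306 by limma. In 29 genes of the MYC network and nucleolar targets 24 were below 0 and 12 (41.4%) were separate and lower, with a median of -0.25. In 35 ribosome assembly genes 33 were below 0, the median was -0.20 and METTL1 was the 1 called.

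Most splicing regulators were lower, though the list held members in both directions. Of 41 SR, hnRNP and related genes 35 were below 0 and 15 (36.6%) were separate and lower, with a median of -0.26 and SRSF3 called. SRSF2 (119 and 83.9 FPKM, -0.51), HNRNPF (177 and 125 FPKM, -0.50) and the branch point factor SF3B1 (40.1 and 29.9 FPKM, -0.41) were separate and not called. CLK4 and CCNL2, a kinase and a cyclin that act on SR proteins and splicing, were separate and higher at 0.43 and 0.40, also not called.

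In the plasma cell lists the lineage factors were not called. IRF4 had means of 24.9 and 20.3 FPKM (-0.27, 95% interval -0.59 to 0.05), XBP1 101 and 88.9 FPKM (-0.19) and PRDM1 8.44 and 9.33 FPKM (0.14), and their groups overlapped. BCMA (TNFRSF17), the receptor targeted in myeloma therapy, was at 141, 130 and 141 FPKM at 100 nM and 81.8, 86.1 and 96.0 FPKM at 1000 nM (-0.64, limma adjusted p = 0.198), with separate groups. Among 16 genes of CIITA and MHC class II, CIITA was the 1 called. Of the 16, which include CIITA and the RFX factors, 9 were below 0 and 7 above, 4 were separate and lower and 2 separate and higher. HLA-DRA had means of 479 and 404 FPKM (-0.25), CD74 430 and 400 FPKM (-0.10), and HLA-DRB1 24.2 and 29.8 FPKM (0.32), with a list median of -0.12. HLA-DR genes are near-identical copies, so reads may be split among them. Of 23 BCL2 family and death regulators 19 were below 0, the median was -0.27, and MCL1 had means of 729 and 660 FPKM (-0.13).

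Histone genes of the replication-dependent kind, read here as polyadenylated transcripts, lay on both sides of 0, 16 above and 14 below of 30. None was called and the median was 0.08. Of the 30, 5 were separate and higher and 1 (3.3%), HIST1H4C, separate and lower, beside 2.85% and 19.3% of all genes tested. HIST1H4C had libraries at 1536, 2519 and 1673 FPKM against 1280.1, 972 and 896 FPKM (-0.85, limma adjusted p = 0.115), and HIST2H2BE 22.4, 16.4 and 24.3 FPKM against 28.3, 34.5 and 39.7 FPKM (0.68, limma adjusted p = 0.227). The groups of each gene were separate, in opposite directions, though histone genes are similar in sequence and their reads can be split. Among 25 immediate early genes 10 were above 0, with a median of -0.03. Of the 25, 5 were separate and higher and 2 (8%) separate and lower. KLF2 had libraries at 40.6, 31.2 and 38.0 FPKM against 19.0, 18.6 and 18.6 FPKM (-0.92, limma adjusted p = 0.0601). FOS had means of 1.98 and 3.35 FPKM (0.55) and EGR1 4.16 and 4.13 FPKM (0.02).

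Housekeeping lists lay near the median of all genes: the 77 cytosolic ribosomal protein genes at -0.14 and the 54 respiratory chain genes at -0.14, with no call in either. Their members separate and lower were 31.2% and 31.5%. RPL23A was the ribosomal protein gene of smallest unadjusted p, with means of 1702 and 1161 FPKM (-0.55, limma adjusted p = 0.135).

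**Figure D3:**
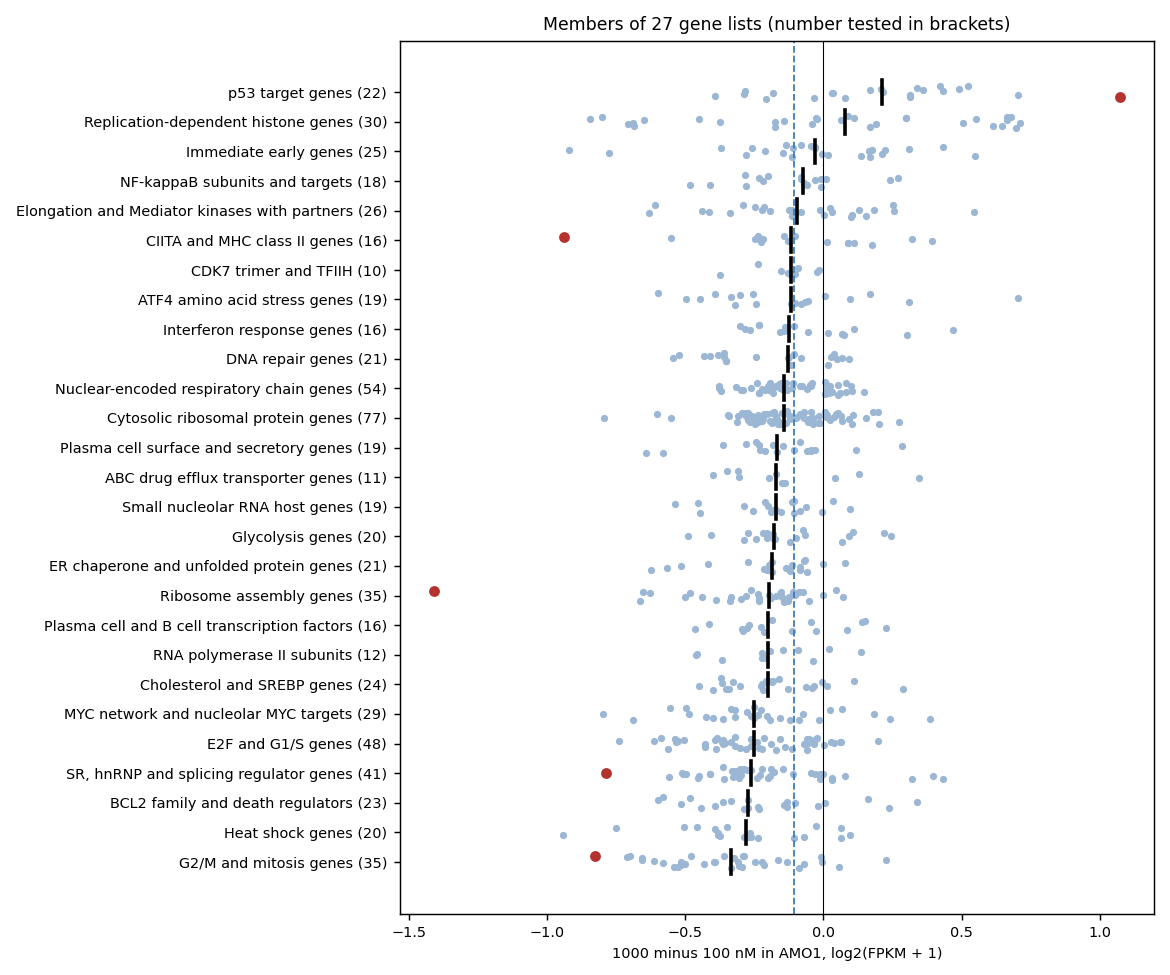
Log2 change from 100 to 1000 nM for the tested members of 27 gene lists, 1 point per gene, red where called, with each list's median as a black bar and the median of all genes tested as a dashed line. The p53 target list lies highest (median 0.21) and the G2/M and mitosis list lowest (median -0.33), and members of every list reach both sides of the dashed line.

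The genes differed in how the change was divided between the concentrations. SNHG12, a small nucleolar RNA host gene, was at a mean of 70.9 FPKM in DMSO, 18.8 at 100 nM and 18 at 1000 nM, a change of -0.06 in the further step (95% interval -0.49 to 0.36). The 19 host genes had a median of -0.48 at 100 nM against DMSO and -0.17 between the concentrations. ATF4, which drives the response to amino acid shortage, had means of 415, 276 and 257 FPKM, but was not called at 100 nM against DMSO (limma adjusted p = 0.204). Its DMSO libraries, at 513, 489 and 242 FPKM, overlapped the 246, 281 and 302 FPKM at 100 nM. By contrast METTL1, ZBTB32, CIITA, SRSF3 and RAB36 fell past the test at 100 nM and again at 1000 nM. HERPUD1, which acts in disposal of misfolded ER proteins, fell at 100 nM (64.9 to 30.9 FPKM, limma adjusted p = 0.0018) and had a mean of 19.8 FPKM at 1000 nM (-0.62, limma adjusted p = 0.151). The 77 ribosomal protein genes had a median of 0.10 at 100 nM against DMSO and -0.02 at 1000 nM. All of these sets share libraries, and the difference between the 2 portions of the change was not tested.

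**Figure D4:**
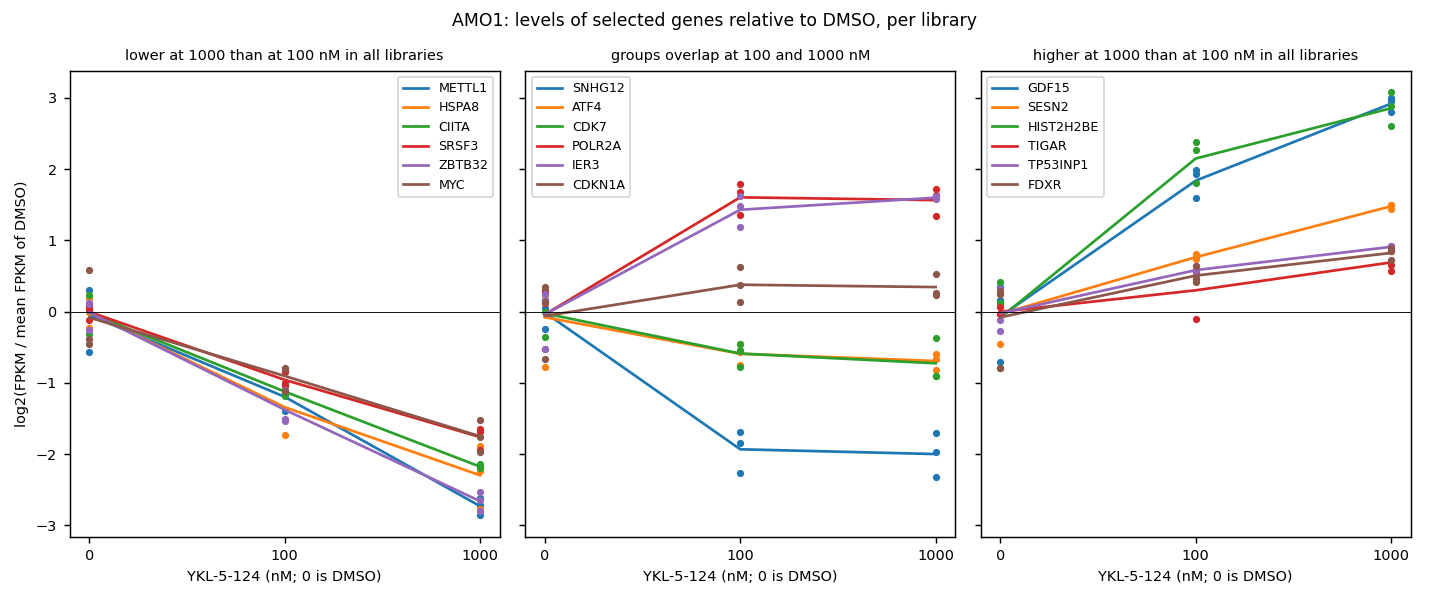
Levels of 18 genes in the 9 AMO1 libraries relative to the mean of DMSO (log2 ratio of FPKM, without pseudocount), with points for libraries and lines through the means of the log ratios, by concentration in nM. The left panel holds genes whose 1000 nM libraries all lay below those at 100 nM, the middle panel genes whose libraries overlapped, such as POLR2A and SNHG12, and the right panel genes whose libraries all lay above.

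The same step was measured in the libraries labelled XG1, whose markers went against that label. Between the same concentrations these libraries gave 17 called genes, all lower (0.139% of genes tested). Over all genes tested the median change there was -0.18 and 81.3% were below 0. Of the 22 genes called in AMO1, 7 had means under 1 FPKM at both concentrations in these libraries and could hardly change: CIITA, DYDC1, JAKMIP1, RAB36, SCGB3A2, SNORA30 and ZBTB32. Of the other 15, the 13 lowered in AMO1 were all below 0, GDF15 was above 0 and DYRK1B was below 0. Of these 1 was called, UBE2T, which fell by 0.73 (limma adjusted p = 0.0396) beside 0.82 in AMO1. METTL1 was at -0.27, SRSF3 at -0.14 and GDF15 at 0.26. These genes were picked by their change in AMO1, so their values in the other libraries are a description. The difference of the 2 changes was tested as an interaction, and SNORA30 alone passed (difference -4.92, SE 0.27, limma adjusted p = 1.18e-09; 0.00819% of genes), with 664 genes at an unadjusted p under 0.05. For METTL1 the difference was -1.14 (limma adjusted p = 0.464) and for GDF15 0.81 (limma adjusted p = 0.79).

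**Figure D5:**
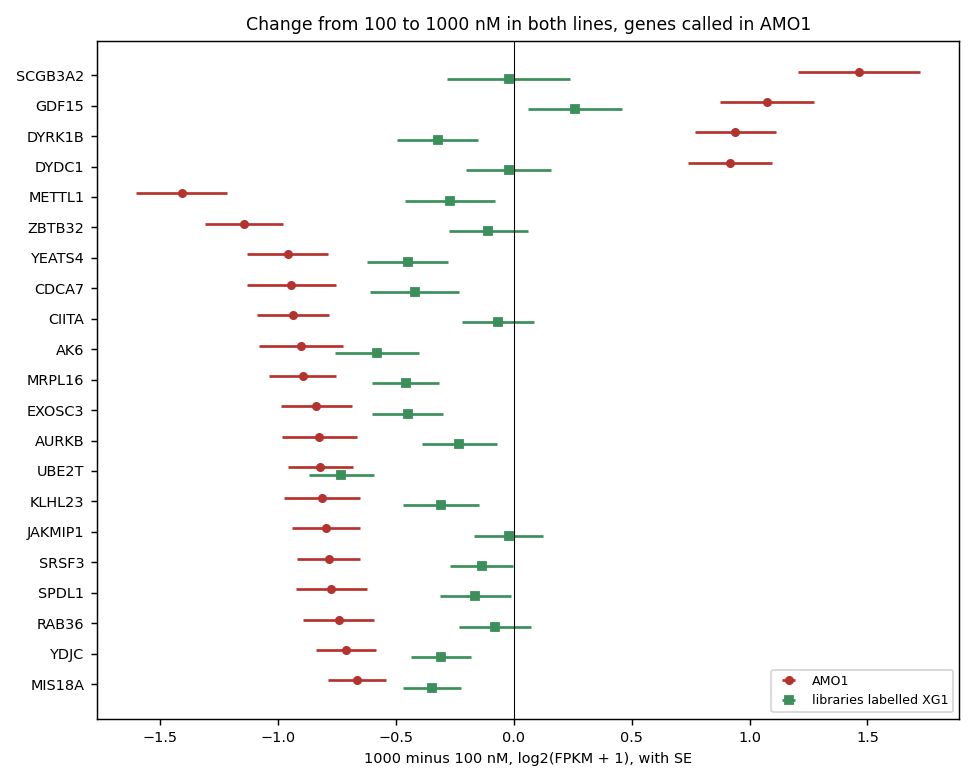
Log2 change from 100 to 1000 nM with its SE for 21 genes called in AMO1 (SNORA30, at -4.94, is left out to keep the scale), in AMO1 as circles and in the libraries labelled XG1 as squares. UBE2T lies at about the same value in both, while the genes under 1 FPKM in the XG1 libraries, ZBTB32, CIITA and JAKMIP1 among them, could only lie near 0 there.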

How the data were processed

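RNA from AMO1 cells, 3 libraries each at 100 nM and 1000 nM YKL-5-124 for 6 h, was compared, with groups and numbers as labelled. Per the labels, cells were lysed in TRIzol and libraries were prepared with the QuantSeq 3′ end kit. Per the submitters' processing notes, reads went through HISAT2 and Cuffnorm on hg19; no source used here states versions, annotation or strand setting. As deposited, each library had 1 table of 26249 genes and 92 ERCC spike-in RNAs, whose values were taken as FPKM made by the authors, a unit read from the name Cuffnorm because the file headers call the column expression only. All columns were mapped to samples.

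Genes that reached a group mean of 1 FPKM in any of the 6 groups were tested, with limma 3.58.1 (R 4.3.3, statmod 1.5.0, trend and robust estimation) on log2(FPKM + 1), computed from the deposited values, with 1 mean per group over the 18 libraries, two-sided, and Benjamini-Hochberg adjusted p-values under 0.05 called. The procedure was tested on simulated data. The changes planted there were larger than most of those called here, and none lay in a low gene. Smaller changes and low genes were therefore not covered. The named genes were the 15 largest called rises and falls with separate groups (filled to 10 names by unadjusted p where fewer were called), up to 4 members of each of 31 gene lists by unadjusted p, 16 genes always named, and up to 5 per direction of the interaction; small RNA genes were otherwise counted and not named. Other list members in the text, such as TTK, FOXM1, MDM2, HSF1 and CD74, were named outside this rule. The comparison, the gene lists and the members named were chosen with earlier results of these data known. Alternatives changed the pseudocount, the filter, the scaling, the libraries in the fit, the estimation of spread, the replicate block, or left out 1 library. Same-numbered libraries deviated from their group means with correlations of -0.01, 0.03 and 0.07, none over 0.1, so numbers were not treated as pairs. Gene neighbours and promoter sequences came from RefSeq tables on GRCh38.p14.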

Additional observations from a re-analysis of the deposited data

Results flagged for a closer look

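The change of SNORA30 from 100 to 1000 nM differed between AMO1 and the libraries labelled XG1 by the test of that difference, which was -4.92 on the log2 scale (SE 0.27, limma adjusted p = 1.18e-09). In AMO1 the gene was at 24.2 to 50.8 FPKM at 100 nM and at 0.0788 to 0.0901 FPKM at 1000 nM. In the XG1 libraries it was at 0.0985 to 0.108 FPKM at 100 nM and 0.0699 to 0.0999 FPKM at 1000 nM. SNORA30 entered the test only through the AMO1 100 nM group, the 1 group of 6 with a mean of 1 FPKM or more.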

How the results depend on the processing

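The 22 calls (4 higher, 18 lower) were 13 (2 and 11) with a pseudocount of 0.1 FPKM and 37 (5 and 32) with 5 FPKM. Without a filter on low values there were 15 (2 higher), and with a group mean of at least 5 FPKM 29 (1 and 28). Quantile normalization gave 11 higher and 11 lower, 12 of the 22 genes being shared with the calls reported, and centring 20, of which 14 were shared. The 6 libraries alone gave 85 calls (10 and 75), and the 9 AMO1 libraries gave 5 (1 and 4). Leaving out 1 library at a time gave 2 to 17 calls, 0 to 2 higher and 2 to 16 lower, and 1 to 6 calls in the test of the difference between the lines, the 6 without XG1 100 nM replicate 2. That test gave 2 calls with the 12 treated libraries alone. Spike-in scaling and limma without robust estimation stayed within 1.5 times the reported counts. Spike-in scaling could move little, since the median spike-in deviations of the 6 libraries were 0.000583 to 0.0578 on the log2 scale. Its result is therefore no separate check. The cause of these differences was not tested, apart from the fewer samples in the fits that left libraries out.

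With the replicate number as a block, 4 genes were called (1 higher and 3 lower), and 2 in the test of the difference between the lines. The numbers did not pair the libraries, and not every library correlated best with its own number.

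Over 141 named genes and their alternatives, 2141 of 2380 values kept their direction and side of the threshold, 183 dropped out of the calls, 27 entered them and 29 changed sign, all 29 for genes that were not called. After centring these were MNAT1 at 2.33e-05, POLR2A at 0.0776, CDKN1A at 0.0840, E2F1 at 0.0453, SNHG12 at 0.0534 and ATF4 at 0.0157. After quantile normalization they were ERCC3 at 0.0295, POLR2I at 0.00151, RPL23 at 0.00827, CDK7 at 0.0183, MNAT1 at 0.0205, MCL1 at 0.0209, POLR2A at 0.156, XBP1 at 0.0380, E2F1 at 0.0974, CDKN1A at 0.135, ATF4 at 0.0804 and SNHG12 at 0.0863. Leaving out 1 library at a time gave POLR2A from -0.164 to 0.0695, PRDM1 from -0.00187 to 0.238, MNAT1 from -0.248 to 0.0624, E2F1 from -0.165 to 0.0761, CDKN1A from -0.155 to 0.0881 and SNHG12 from -0.220 to 0.0864.

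Depth is unknown for these FPKM values, so no counting interval could be set. With 3 libraries per group the median SE of a change was 0.198 on the log2 scale, and 0.28 for the difference between the lines.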

Other observations

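SNORD38A, a small nucleolar RNA gene chosen after its values were seen, was at 4204, 4391 and 2728 FPKM in the 3 AMO1 libraries at 1000 nM and between 0.0792 and 0.129 FPKM in the other 6 AMO1 libraries. It was the only gene at 10 FPKM or more in every 1000 nM library and under 1 FPKM in the other 6, and it was not called (limma adjusted p = 0.215). In the libraries labelled XG1 it was at 6239 FPKM in 1 DMSO library and 3290.2 FPKM in 1 library at 1000 nM, and near 0.1 FPKM in the others. The SE of its AMO1 change (3.25) was taken from the fit over all 18 libraries, these included.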
